A study of Mus musculus with 48 samples.

Results

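The striatal RNA of 10 genes changed with the Q140 allele of huntingtin and stayed at least 2-fold changed in mice labelled as lacking Msh3. They were Gm2420, Tmc3 and Rprm, which were higher with Q140, and Cpne9, Phex, Vdr, Aoah, Ifi27l2b, Theg and Sohlh1, which were lower. These are 10 of the 48795 genes counted and 10 of the 19714 genes with enough counts to be tested. The choice needed a test, so that all 10 passed that filter on low counts was fixed in advance. Gm2420 passed it through mice with Q140 and was near 0 in the others. Ifi27l2b and Sohlh1 passed it mainly through mice without Q140. For these genes the filter is not independent of the Q140 difference. The members were chosen from measured values. Past an adjusted p of 0.05 with the same sign in both Q140 minus WT (33.0% of tested genes passed) and Q140 x Msh3-/- minus Msh3-/- (7.86% passed) were 1304 genes, and 31 of these were at least 2-fold changed on the Msh3-/- background (24 lower and 7 higher). The 10 genes are among those 31, no further criterion for picking them being given, so their values in these 2 contrasts are descriptions and carry no test.

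RNA was sequenced from the striatum of 48 mice in 6 genotypes, with 8 mice (4 females and 4 males) in each. The groups were Q140 and WT, then Q140 x Msh3+/- and Msh3+/-, then Q140 x Msh3-/- and Msh3-/-. Q140 is a knock-in that places an expanded CAG repeat in the mouse Htt gene, and per the labels the Q140 mice are heterozygous, so 1 of their Htt alleles is normal. Msh3+/- and Msh3-/- mice have lost 1 or both alleles of Msh3 by their labels, and how that allele was made is not given in the sources used here. All mice were C57BL/6, and the labels describe no other allele or agent. Age is labelled as 12 months, while the extraction text speaks of 6 months, which leaves the age at tissue collection uncertain.

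Huntington's disease is caused by an expanded CAG repeat in HTT, and the spiny projection neurons of the striatum are the cells most affected. The repeat goes on growing in striatal neurons through life, and Msh3, a subunit of the MutSβ mismatch recognition complex, is needed for that growth in mouse models. The comparison of Q140 mice with 2, 1 or no intact Msh3 alleles by their labels therefore asks how much of the Q140 transcriptional change depends on Msh3, and the genes here are ones in which a change of at least 2-fold was still present in mice labelled Msh3-/-.

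The depth was 38.9 to 60.9 M counts per library (M, 1000000 counts), with a median of 47.3 M. Msh3 RNA sorted all 48 libraries by their labelled Msh3 genotype, but upwards. Q140 mice had 30.5 ± 1.19 CPM of it and WT mice 29.0 ± 1.61 CPM (SD, n = 8 in every group, CPM being counts per 1000000 after TMM scaling of library sizes). Q140 x Msh3+/- mice had 74.9 ± 3.92 CPM and Msh3+/- mice 73.9 ± 1.56 CPM, and Q140 x Msh3-/- mice had 115.5 ± 7.78 CPM and Msh3-/- mice 122.4 ± 3.10 CPM. Group names are those of the labels. Htt RNA was 213 ± 11 CPM in Q140 and 227 ± 7.95 CPM in WT mice. The libraries Q140 x Msh3+/- F1, Q140 x Msh3-/- M1, Msh3-/- M1 and Msh3-/- F1 stood farthest apart on the first axis of variation left after genotype and sex (9.29% of it), and the Q140 effects on the 10 genes were also computed without them.

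The contrast that the stated rule did not use, Q140 x Msh3+/- minus Msh3+/-, gave a test in 16 other mice. All 10 genes passed it, 3 higher (10.8% of all tested genes were called higher) and 7 lower (10.8% called lower) with Q140, each at least 2-fold (edgeR quasi-likelihood F-test, Benjamini-Hochberg over all genes tested, adjusted p from 3.30e-17 for Gm2420 to 9.53e-07 for Theg). For Gm2420, Ifi27l2b and Sohlh1 the filter on low counts is not independent of this difference, so their adjusted p, here and below, is given as a description. Of all tested genes, 21.5% passed in this contrast in either direction and 0.817% passed with at least a 2-fold change. Of the 31 genes that meet the rule, 26 passed and 25 changed at least 2-fold. How the 10 were picked from these 31 is not given, and the pick may have drawn on this contrast. So 10 of 10 is not read as an independent check. In all 10 genes the 8 Q140 x Msh3+/- mice did not overlap the 8 Msh3+/- mice, which held for 4.60% of all tested genes. Leaving out the 4 libraries far along that axis, all 10 were past the threshold again. On the WT background the groups did not overlap in 10 of 10 members (8.97% of all tested genes), and on the Msh3-/- background in 7 of 10 (1.09%), the exceptions being Vdr, Theg and Sohlh1. Both of these contrasts chose the genes, so nothing is read from the last 2 counts.

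**Figure D1:**
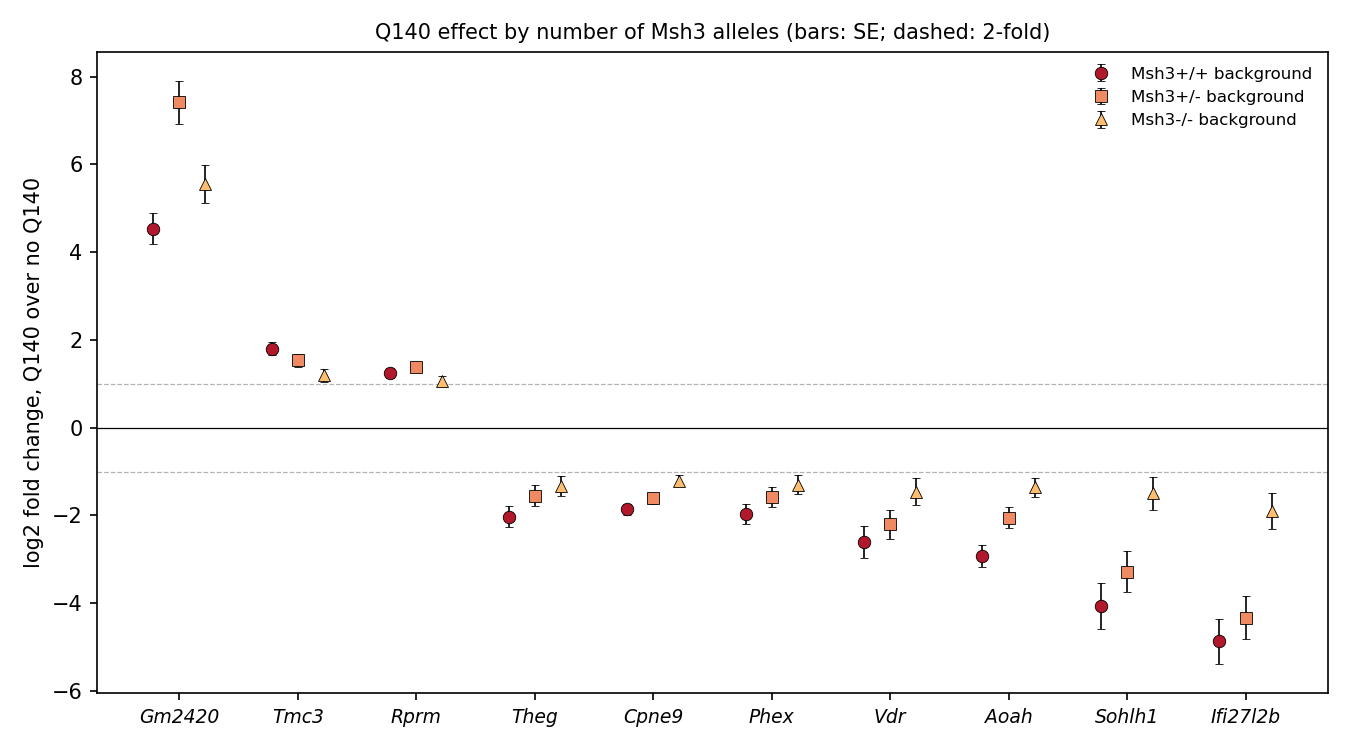
Log2 fold change of each gene (vertical axis) with Q140 over the matching group without it, on the Msh3+/+ (circles, Q140 over WT), Msh3+/- (squares) and Msh3-/- (triangles) backgrounds. Bars are SE, and dashed lines mark a 2-fold change. All 30 values lie beyond the 2-fold lines, Gm2420 is farthest above 0, and for each of the 7 lower genes the triangle is nearest to 0.

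Gm2420 showed the largest rise and was close to undetected without Q140. It is annotated as a transcribed unprocessed pseudogene (ENSMUSG00000082305, GRCm38 chromosome 5, 32720330 to 32736194, plus strand), and no function is assigned to it in the files. Its level in Q140 mice was 0.673 CPM at the lowest, 0.943 CPM at the median and 1.15 CPM at the highest, against 0, 0.0232 and 0.12 CPM in WT mice. The Q140 x Msh3+/- mice had 0.544, 0.911 and 1.24 CPM, against 7 Msh3+/- mice at 0 and a single mouse at 0.0213 CPM. It stood at 0.423, 0.5995 and 1.22 CPM in Q140 x Msh3-/- mice, against 5 Msh3-/- mice at 0 and a highest value of 0.0507 CPM. Every mouse with Q140 was above every mouse without it, whatever its Msh3 genotype.

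Summed over 8 libraries, Gm2420 had 366 counts in Q140 and 14 in WT mice, a ratio of 24.6 after scaling (95% exact counting interval 14.5 to 45.5). The sums were 366 counts in Q140 x Msh3+/- and 1 in Msh3+/- mice, a ratio of 338 (60.3 to 13400), and 250 counts in Q140 x Msh3-/- and 4 in Msh3-/- mice, a ratio of 57.1 (22 to 211). The wide intervals show how little the near-empty groups fix the size of the ratio, and these intervals cover counting error only. The fitted log2 fold changes were 4.53 (SE 0.354) on the WT, 7.41 (SE 0.496, adjusted p = 3.30e-17, edgeR) on the Msh3+/- and 5.55 (SE 0.441) on the Msh3-/- background, and their size depends on the prior count because the lower group is near 0. The levels within the Q140 groups are firmer: 0.914 ± 0.201 CPM in Q140, 0.897 ± 0.233 CPM in Q140 x Msh3+/- mice and then 0.660 ± 0.254 CPM in Q140 x Msh3-/- mice, with all 3 ranges overlapping.

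The longest Gm2420 transcript (2249 bases) resembles Sfi1, a gene for a centrosomal protein on chromosome 11 (3131850 to 3193463, minus strand). They align over 2266 columns at 93.9% identity, with 117 mismatches and 21 gap positions, so reads of either gene could be split between them by the authors' counting. The first 120 bases of the Gm2420 transcript and bases 1480 to 1599 of the Sfi1 transcript are given from GENCODE M21 (GRCm38) to make the likeness visible, with the 7 bases that differ in capitals.
Gm2420: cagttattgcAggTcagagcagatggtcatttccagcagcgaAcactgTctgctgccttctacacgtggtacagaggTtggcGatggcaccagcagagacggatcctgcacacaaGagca
Sfi1: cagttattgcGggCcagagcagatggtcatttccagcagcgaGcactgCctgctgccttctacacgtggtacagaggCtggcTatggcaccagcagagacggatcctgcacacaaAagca
Sfi1 itself was at 25.4 ± 2.72 CPM in Q140 and 30.6 ± 4.58 CPM in WT mice, at 29.1 ± 3.82 CPM in Q140 x Msh3+/- mice and 30.02 ± 3.41 CPM in Msh3+/- mice, and at 27.2 ± 4.92 CPM in Q140 x Msh3-/- mice and 31.6 ± 3.27 CPM in Msh3-/- mice. Its log2 fold change was -0.27 (adjusted p = 0.0188, edgeR) on the WT, -0.04 (adjusted p = 0.808) on the Msh3+/- and -0.22 (adjusted p = 0.137) on the Msh3-/- background. Whether reads moved between these genes was not tested.

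Gm2420 lies 2.03 Mb from Htt, on the chromosome that carries the knock-in. Its right-hand neighbour Pisd, which encodes a phosphatidylserine decarboxylase and lies on the other strand with its 3′ end 0.107 kb away, was at 22 ± 0.849 CPM in Q140 x Msh3+/- mice and 21.9 ± 0.891 CPM in Msh3+/- mice (log2 fold change 0.00, SE 0.0414, adjusted p = 0.963, edgeR). Of the 150 other tested genes within 5 Mb of Htt, 26 rose and 19 fell in that contrast, 30% in all beside 21.5% of all tested genes, and 0 of those 45 changed by 2-fold or more. On the WT background 61 of the 150 passed the test (40.7%, beside 33.0% of all tested genes) and 1 of them changed at least 2-fold, and on the Msh3-/- background 21 passed (14%, beside 7.86%) and 0 changed 2-fold. Mice with Q140 also carry any chromosome segment inherited with the knock-in. Its part in the rise of Gm2420 was not tested and cannot be told apart from that of the repeat in this design.

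Tmc3 belongs to the transmembrane channel-like family, whose members Tmc1 and Tmc2 form the mechanotransduction channel of inner ear hair cells. It lies on chromosome 7 (83584927 to 83625614, plus strand). Its level in Q140 mice was 4.64 CPM at the lowest, 5.55 CPM at the median and 6.96 CPM at the highest, against 1.099, 1.66 and 2.47 CPM in WT mice. Among Q140 x Msh3+/- mice it was 3.87, 4.62 and 6.46 CPM, against 1.06, 1.72 and 2.38 CPM in Msh3+/- mice. The corresponding values were 2.52, 3.79 and 4.42 CPM in Q140 x Msh3-/- mice, against 1.19, 1.69 and 1.99 CPM in Msh3-/- mice. No mouse with Q140 fell within the range of its own background, and the means of the 3 groups without Q140 were all between 1.62 and 1.71 CPM.

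The log2 fold change of Tmc3 was 1.53 on the Msh3+/- background (SE 0.142, adjusted p = 1.79e-12, edgeR), beside 1.80 on the WT and 1.19 on the Msh3-/- background. Tmc3 was the only gene of the 10 in which Q140 x Msh3-/- mice did not overlap Q140 mice: they averaged 3.74 ± 0.593 CPM, against 5.65 ± 0.704 CPM in Q140 mice (SD, n = 8, log2 difference -0.59, SE 0.134). The share of all tested genes without overlap in this comparison is not given here, so nothing is read from that count. The antisense gene Gm16638 overlaps Tmc3 on the opposite strand, over 3515 bases of their longest transcripts. It was at 18.9 ± 4.35 CPM in Q140 x Msh3+/- mice and 15.6 ± 1.83 CPM in Msh3+/- mice (log2 fold change 0.28, adjusted p = 0.0407, edgeR), and its log2 fold change was 0.07 (adjusted p = 0.633) on the WT and 0.01 (adjusted p = 0.964) on the Msh3-/- background. Without Q140 x Msh3+/- F1, at 28.35 CPM, its mean in that group was 17.5 CPM and its log2 fold change was 0.17 (adjusted p = 0.191), and without Msh3+/- M4 it was 0.25 (adjusted p = 0.0765). The libraries were stranded, but the strand setting of the counting is not given in the sources used here, so how reads were divided between the 2 genes is uncertain.

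Among 9 tested relatives and partners of Tmc3 (other Tmc genes and parts of the hair-cell transduction complex), 2 rose and 1 fell on the Msh3+/- background, with a median log2 change of 0.00 beside 0.01 over all tested genes. Lhfpl5, a subunit of that complex, was at 2.83 CPM in Q140 x Msh3+/- mice and 2.02 CPM in Msh3+/- mice (log2 fold change 0.49, adjusted p = 0.00125, edgeR). Tmc6 was at 4.43 CPM in Q140 x Msh3+/- mice and 3.67 CPM in Msh3+/- mice (0.27, adjusted p = 0.0399), and Tmc8 at 0.791 CPM in Q140 x Msh3+/- mice and 1.23 CPM in Msh3+/- mice (-0.64, adjusted p = 0.00259). None of these reached a 2-fold change. Without Msh3+/- M4 the adjusted p of Tmc6 was 0.0782, and without Q140 x Msh3+/- F1 a second gene fell (Tmc4, -0.37, adjusted p = 0.0194).

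Rprm encodes Reprimo, a p53-induced protein known for arresting the cell cycle, and lies on chromosome 2 (54084093 to 54085552, minus strand). Its level in Q140 mice was 9.78 CPM at the lowest, 10.5 CPM at the median and 14.0 CPM at the highest, against 3.78, 4.46 and 5.502 CPM in WT mice. In Q140 x Msh3+/- mice it was 9.79, 12.1 and 13.2 CPM, against 3.47, 4.24 and 7.29 CPM in Msh3+/- mice. The Q140 x Msh3-/- mice had 6.35, 9.75 and 11.9 CPM, against 3.07, 4.76 and 5.46 CPM in Msh3-/- mice. All 3 pairs of groups were apart, and of the 10 genes Rprm alone did not order its 3 Q140 groups by the number of Msh3 alleles, the Q140 x Msh3+/- mice having the highest mean. Their log2 difference from Q140 mice was 0.10 (SE 0.11) for Rprm and -0.02 (SE 0.241) for Gm2420. Both are within error, so nothing is read from this exception.

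Rprm rose by a log2 fold change of 1.39 on the Msh3+/- background (SE 0.115, adjusted p = 1.39e-13, edgeR), beside 1.25 on the WT and 1.07 on the Msh3-/- background. The highest Msh3+/- mouse, M4, was also the one with the highest summed level of 6 cortical neuron markers in its group, 82.0 CPM against a group median of 11.4 CPM. Without that mouse the log2 fold change of Rprm was 1.51, so it was no smaller for leaving that mouse out. That mouse also had the highest Vdr of its group, 1.96 CPM, and the lowest Ifi27l2b, Sohlh1, Theg and Tmc3, at 0.181, 0.248, 0.858 and 1.06 CPM. Over the groups the same sum was 6.03 to 23.1 CPM with a median of 18.4 CPM in Q140 x Msh3+/- mice, and 5.55 to 82.0 CPM with a median of 11.4 CPM in Msh3+/- mice. It was 6.41 to 17.2 CPM in Q140, 6.30 to 21.7 CPM in WT, 6.36 to 84.0 CPM in Q140 x Msh3-/- and 4.59 to 49.5 CPM in Msh3-/- mice. The highest of the last 2 groups were Q140 x Msh3-/- F2 and Msh3-/- F2. Their Rprm was 10.6 and 3.68 CPM, against group means of 9.24 and 4.43 CPM. None of the 6 cortical markers passed the test on the Msh3+/- background, with or without Msh3+/- M4. Their median log2 change there was -0.35 with that mouse and 0.41 without it. The part of cortical RNA in the rise of Rprm was not tested.

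Of 16 tested genes listed for the p53 response, Rprml among them, 3 rose and 2 fell on the Msh3+/- background, with a median log2 change of 0.00. Without Q140 x Msh3+/- F1, 2 rose and 3 fell, and without Msh3+/- M4, 2 rose and 2 fell. Cdkn1a was at -0.31 (adjusted p = 0.08, edgeR) with all mice and at -0.40 (adjusted p = 0.0179) without Q140 x Msh3+/- F1. Trp53, which encodes p53, was at 25.1 CPM in Q140 x Msh3+/- mice and 23.0 CPM in Msh3+/- mice (log2 fold change 0.13, adjusted p = 0.0118, edgeR). The kinase gene Plk2 fell to 240.3 CPM in Q140 x Msh3+/-, against 297.9 CPM in Msh3+/- mice (-0.31, adjusted p = 8.13e-08), and the stress gene Gadd45a to 1.71 CPM, against 2.33 CPM in Msh3+/- mice (-0.45, adjusted p = 0.0153). The Rprm paralog Rprml was at 25.5 ± 1.89 CPM in Q140 x Msh3+/- mice and 22.6 ± 1.82 CPM in Msh3+/- mice (0.17, adjusted p = 0.0184). Changes in this list stayed below 2-fold.

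RefSeq promoters (GRCm38.p6, 250 bases before and 50 bases after the annotated start, 300 in all) were found for 7 of the 10 genes, and for Ifi27l2b, Theg and Gm2420 there was no entry. All 7 are given, Rprm and Tmc3, which rose, before the 5 that fell, because each set moved together in every Q140 comparison. Capitals mark matches on either strand to a GC box (GGGCGG, or CCGCCC on the other strand), an E-box (CACGTG, the same on both strands) or the core of the cyclic AMP response element (TGACG, or CGTCA on the other strand). The windows are chr2:54085503-54085802 on the minus strand for Rprm, chr7:83584681-83584980 on the plus strand for Tmc3, chr6:113282057-113282356 on the plus strand for Cpne9, chrX:157415237-157415536 on the minus strand for Phex, chr15:97908247-97908546 on the minus strand for Vdr, chr13:20793863-20794162 on the plus strand for Aoah and chr2:25847199-25847498 on the minus strand for Sohlh1.
Rprm: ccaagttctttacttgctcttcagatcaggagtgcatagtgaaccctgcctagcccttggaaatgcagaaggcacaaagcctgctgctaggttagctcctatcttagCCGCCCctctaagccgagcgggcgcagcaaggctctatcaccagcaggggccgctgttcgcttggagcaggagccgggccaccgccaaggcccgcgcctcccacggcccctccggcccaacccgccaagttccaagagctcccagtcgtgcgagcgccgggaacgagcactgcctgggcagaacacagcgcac
Tmc3: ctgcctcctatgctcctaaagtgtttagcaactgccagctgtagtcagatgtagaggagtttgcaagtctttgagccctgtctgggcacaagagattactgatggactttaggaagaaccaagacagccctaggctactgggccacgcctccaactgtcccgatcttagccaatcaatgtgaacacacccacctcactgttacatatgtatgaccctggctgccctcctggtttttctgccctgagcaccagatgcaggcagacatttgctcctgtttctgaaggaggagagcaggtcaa
Cpne9: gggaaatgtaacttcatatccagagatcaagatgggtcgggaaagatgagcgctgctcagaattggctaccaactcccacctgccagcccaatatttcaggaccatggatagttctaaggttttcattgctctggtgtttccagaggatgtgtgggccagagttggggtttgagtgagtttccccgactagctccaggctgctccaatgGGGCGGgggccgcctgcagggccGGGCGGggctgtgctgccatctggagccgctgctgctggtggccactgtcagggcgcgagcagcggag
Phex: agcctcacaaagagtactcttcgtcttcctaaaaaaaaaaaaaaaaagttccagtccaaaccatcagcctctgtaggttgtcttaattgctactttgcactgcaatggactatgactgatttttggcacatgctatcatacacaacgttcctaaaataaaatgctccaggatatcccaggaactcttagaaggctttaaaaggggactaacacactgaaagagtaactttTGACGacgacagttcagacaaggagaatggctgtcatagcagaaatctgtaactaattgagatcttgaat
Vdr: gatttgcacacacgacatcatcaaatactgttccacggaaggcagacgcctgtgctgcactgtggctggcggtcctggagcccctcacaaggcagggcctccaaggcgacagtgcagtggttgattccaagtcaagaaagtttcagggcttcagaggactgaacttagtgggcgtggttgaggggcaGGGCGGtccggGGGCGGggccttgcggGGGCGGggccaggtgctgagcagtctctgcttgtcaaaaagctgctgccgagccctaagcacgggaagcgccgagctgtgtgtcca
Aoah: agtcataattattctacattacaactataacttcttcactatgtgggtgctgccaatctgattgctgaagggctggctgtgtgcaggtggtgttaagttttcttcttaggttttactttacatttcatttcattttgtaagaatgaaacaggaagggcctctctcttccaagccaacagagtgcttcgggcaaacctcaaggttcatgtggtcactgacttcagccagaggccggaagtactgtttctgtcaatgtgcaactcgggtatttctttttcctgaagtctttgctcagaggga
Sohlh1: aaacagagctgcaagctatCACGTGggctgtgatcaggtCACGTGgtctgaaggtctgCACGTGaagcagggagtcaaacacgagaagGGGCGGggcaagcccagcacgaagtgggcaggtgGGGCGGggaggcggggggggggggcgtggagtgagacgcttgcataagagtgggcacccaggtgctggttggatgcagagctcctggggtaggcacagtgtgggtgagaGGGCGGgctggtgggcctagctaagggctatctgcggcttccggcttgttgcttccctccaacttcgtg
The Rprm window held 1 GC box and 19 CG dinucleotides, and the Tmc3 window held no match and 2 CG dinucleotides, so the starts of Rprm and Tmc3 were unlike. The genes that fell and had an entry had unlike starts too. Cpne9 had 2 GC boxes and 11 CG dinucleotides, Vdr 3 GC boxes and 15 CG dinucleotides, and Sohlh1 3 GC boxes, 3 E-boxes and 14 CG dinucleotides. Phex had 1 TGACG match, no GC box and 4 CG dinucleotides, and Aoah held no match and 3 CG dinucleotides. A GC box was in 35.7%, TGACG in 20.8% and an E-box in 7.15% of all 32851 RefSeq promoters of that length, 3 or more E-boxes in 0.0883% (29 promoters), and the median promoter had 7 CG dinucleotides. The Vdr window begins inside the GENCODE span of the gene and so shows only 1 of its annotated starts.

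**Figure D2:**
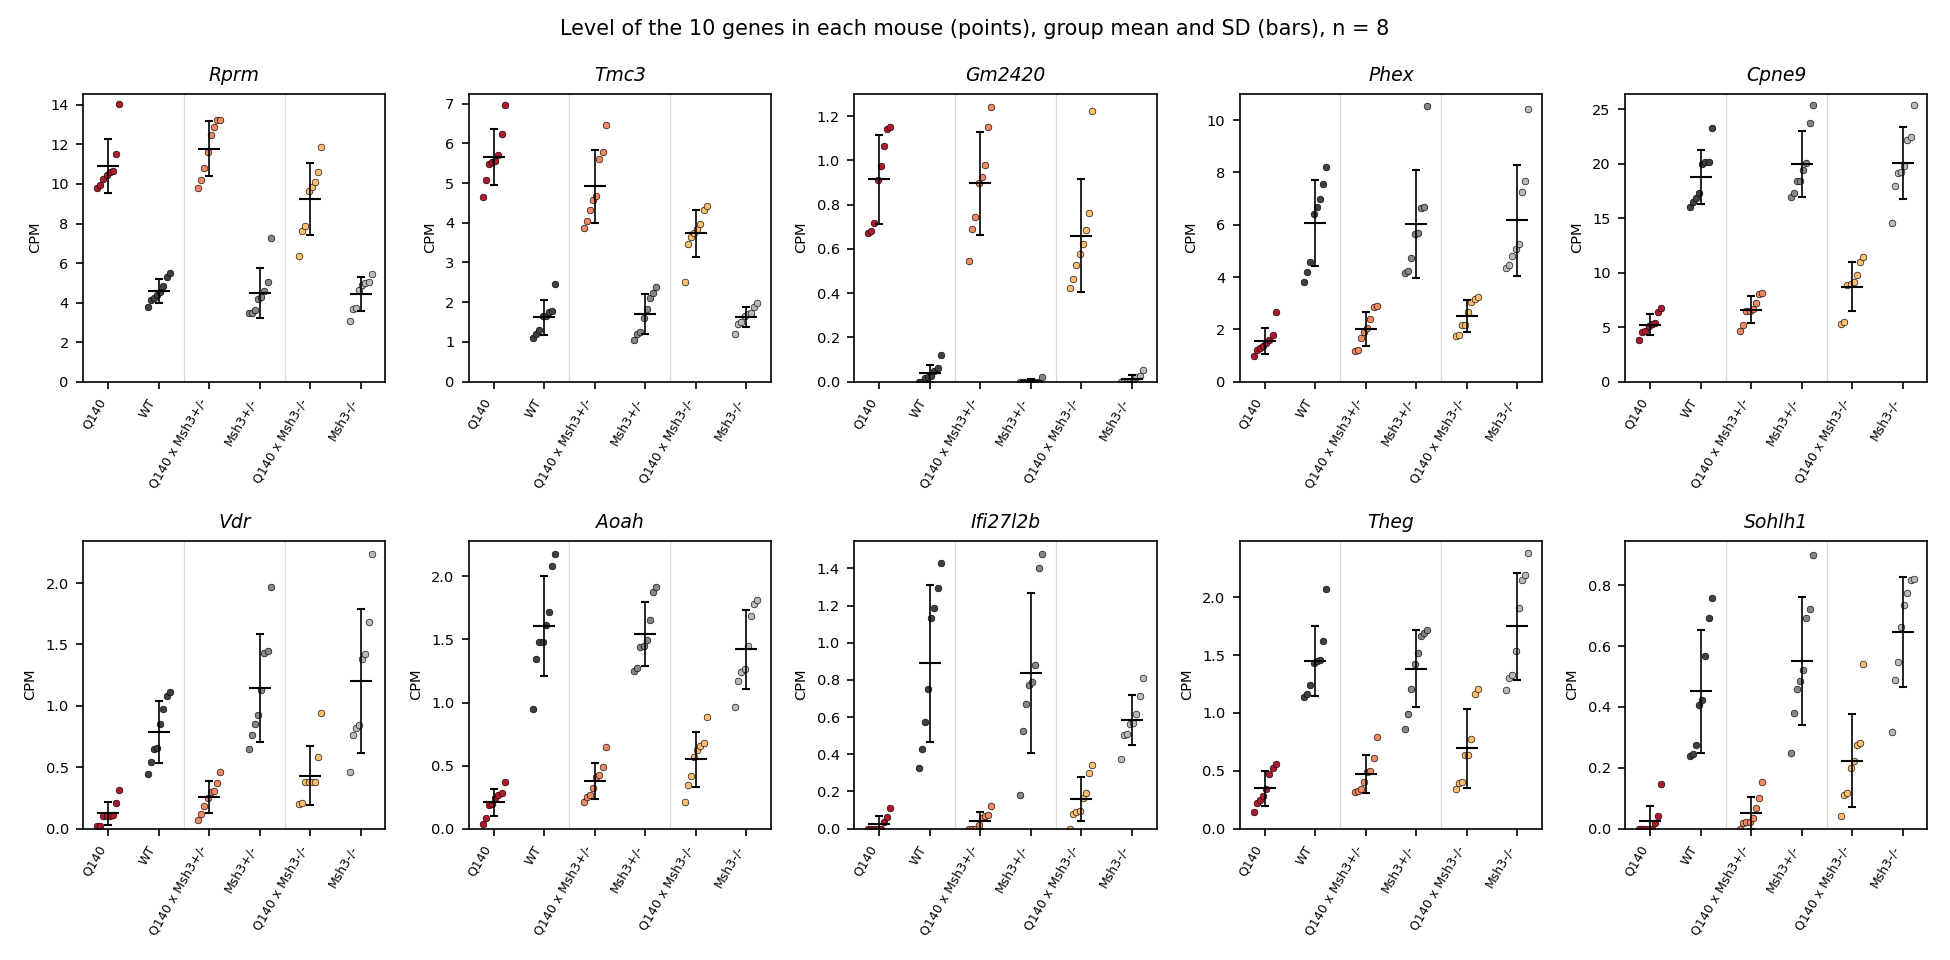
Level of each gene in CPM (vertical axis, starting at 0) in every mouse (points), with the mean and SD of each group of 8 (bars). Groups run from left to right as Q140 and WT, Q140 x Msh3+/- and Msh3+/-, Q140 x Msh3-/- and Msh3-/-. The 3 genes that were higher with Q140 stand above their neighbours in each pair and the other 7 below, and the means of the lower genes are ordered Q140, Q140 x Msh3+/-, Q140 x Msh3-/- from low to high.

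Cpne9 had the highest counts of the genes that fell. It encodes a copine, one of a family of calcium-dependent phospholipid-binding proteins, and lies on chromosome 6 (113282307 to 113305627, plus strand). Its level in Q140 mice was 3.81 CPM at the lowest, 5.23 CPM at the median and 6.78 CPM at the highest, against 16.1, 18.7 and 23.3 CPM in WT mice. It stood at 4.66, 6.59 and 8.13 CPM in Q140 x Msh3+/- mice, against 17.0, 18.9 and 25.4 CPM in Msh3+/- mice. Among Q140 x Msh3-/- mice it was 5.26, 9.03 and 11.4 CPM, against 14.5, 19.6 and 25.4 CPM in Msh3-/- mice. The Q140 groups were apart from their backgrounds in each pair, and only among themselves did they overlap.

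Cpne9 fell by 1.61 on the log2 scale on the Msh3+/- background (SE 0.122, adjusted p = 3.49e-14, edgeR), beside -1.86 on the WT and -1.21 on the Msh3-/- background. Of the 8 other copines, 2 rose and 1 fell on the Msh3+/- background, with a median log2 change of 0.06. Cpne2 fell to 21.3 CPM in Q140 x Msh3+/-, against 24.7 CPM in Msh3+/- mice (-0.21, adjusted p = 0.00536, edgeR), while Cpne6 was at 72.3 CPM in Q140 x Msh3+/- mice and 61.4 CPM in Msh3+/- mice (0.24, adjusted p = 0.0227). Without Q140 x Msh3+/- F1 neither copine rise was past the threshold (Cpne6 0.21, adjusted p = 0.0521, and Cpne8 0.13, adjusted p = 0.127), and without Msh3+/- M4 Cpne6 alone was. The genes on either side of Cpne9, Mtmr14 and Brpf1, had log2 fold changes of -0.01 (adjusted p = 0.892) and -0.02 (adjusted p = 0.736) there.

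Phex and Vdr are both known from mineral metabolism. Phex encodes an endopeptidase whose loss in bone raises the phosphate hormone Fgf23 and causes X-linked hypophosphataemia, and Vdr encodes the nuclear receptor for active vitamin D, which binds DNA as a dimer with a retinoid X receptor. Phex lies on chromosome X (157162075 to 157415312, minus strand) and Vdr on chromosome 15 (97854425 to 97910630, minus strand).

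The level of Phex in Q140 mice was 0.984 CPM at the lowest, 1.44 CPM at the median and 2.65 CPM at the highest, against 3.81, 6.55 and 8.21 CPM in WT mice. The corresponding values were 1.18, 1.97 and 2.88 CPM in Q140 x Msh3+/- mice, against 4.16, 5.67 and 10.5 CPM in Msh3+/- mice. In Q140 x Msh3-/- mice it was 1.76, 2.42 and 3.25 CPM, against 4.36, 5.16 and 10.4 CPM in Msh3-/- mice. The groups were apart in each pair, although mice without Q140 varied more than 2-fold among themselves. Phex fell by 1.58 on the log2 scale on the Msh3+/- background (SE 0.220, adjusted p = 3.09e-07, edgeR), beside -1.96 on the WT and -1.30 on the Msh3-/- background.

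Vdr was a low-count gene, with 1 to 17 counts per Q140 library. Its level in Q140 mice was 0.0202 CPM at the lowest, 0.106 CPM at the median and 0.313 CPM at the highest, against 0.449, 0.753 and 1.11 CPM in WT mice. The Q140 x Msh3+/- mice had 0.0719, 0.275 and 0.460 CPM, against 0.649, 1.03 and 1.96 CPM in Msh3+/- mice. It stood at 0.200, 0.381 and 0.944 CPM in Q140 x Msh3-/- mice, against 0.465, 1.11 and 2.24 CPM in Msh3-/- mice. The groups were apart on the first 2 backgrounds and overlapped on the Msh3-/- background, where the highest Q140 x Msh3-/- mouse was above the lowest Msh3-/- mice. Vdr fell by 2.20 on the log2 scale on the Msh3+/- background (SE 0.330, adjusted p = 7.25e-07, edgeR), beside -2.61 on the WT and -1.46 on the Msh3-/- background.

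Of 11 tested genes of vitamin D transport, metabolism and action, 1 rose and 4 fell on the Msh3+/- background, with a median log2 change of 0.00. The retinoid X receptor gene Rxrg fell to 91.8 CPM in Q140 x Msh3+/-, against 146.1 CPM in Msh3+/- mice (-0.67, SE 0.0908, adjusted p = 1.88e-07, edgeR), and passed the test also on the WT (-0.59) and Msh3-/- (-0.35, adjusted p = 0.0113) backgrounds. Rxra fell by 0.14 and Cyp2r1, a vitamin D 25-hydroxylase, by 0.68 on the log2 scale, while Cyp27a1 was at 7.54 CPM in Q140 x Msh3+/- mice and 6.46 CPM in Msh3+/- mice (0.22, adjusted p = 0.0266). Of 14 tested relatives of Phex and genes of phosphate handling, 2 rose and 1 fell, with a median of 0.01. Ece2, an endothelin-converting relative of Phex, was at 56.6 CPM in Q140 x Msh3+/- mice and 39.6 CPM in Msh3+/- mice (0.51, adjusted p = 1.43e-10). Fgf23 was at 0.331 CPM in Q140 x Msh3+/- mice and 0.130 CPM in Msh3+/- mice (1.34, adjusted p = 0.0168), but its log2 fold change was -0.21 (adjusted p = 0.729) on the WT and -0.34 (adjusted p = 0.698) on the Msh3-/- background, and on the Msh3+/- background without Q140 x Msh3+/- F1 it was 0.95 (adjusted p = 0.104). Sms, which encodes spermine synthase and lies 28.5 kb from Phex, rose by a log2 fold change of 0.18 (adjusted p = 7.88e-05) on the Msh3+/- background. Of the neighbours of Vdr, Hdac7 rose by 0.21 (adjusted p = 0.0195) and Tmem106c was at -0.04 (adjusted p = 0.655).

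Aoah and Ifi27l2b are known from innate immunity. Aoah encodes acyloxyacyl hydrolase, which inactivates bacterial lipopolysaccharide. The gene lies on chromosome 13 (20794113 to 21036617, plus strand), 71.2 Mb from Msh3. Its level in Q140 mice was 0.0368 CPM at the lowest, 0.217 CPM at the median and 0.373 CPM at the highest, against 0.949, 1.55 and 2.18 CPM in WT mice. Among Q140 x Msh3+/- mice it was 0.212, 0.366 and 0.649 CPM, against 1.25, 1.47 and 1.92 CPM in Msh3+/- mice. The corresponding values were 0.212, 0.594 and 0.887 CPM in Q140 x Msh3-/- mice, against 0.964, 1.36 and 1.82 CPM in Msh3-/- mice. The groups were apart in each pair, most narrowly on the Msh3-/- background. Aoah fell by 2.05 on the log2 scale on the Msh3+/- background (SE 0.233, adjusted p = 7.08e-10, edgeR), beside -2.92 on the WT and -1.36 on the Msh3-/- background.

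Ifi27l2b, an interferon-inducible family member on chromosome 12 (103450898 to 103457223, minus strand), was close to undetected in Q140 mice. In Q140 mice 5 libraries were at 0 and the highest at 0.112 CPM, against 0.326 CPM at the lowest, 0.942 CPM at the median and 1.43 CPM at the highest in WT mice. In Q140 x Msh3+/- mice 3 libraries were at 0 and the highest at 0.122 CPM, against 0.181, 0.783 and 1.48 CPM in Msh3+/- mice. In Q140 x Msh3-/- mice it was 0, 0.130 and 0.344 CPM, against 0.375, 0.567 and 0.812 CPM in Msh3-/- mice. The groups were apart in each pair, and the highest level with Q140 was in the Q140 x Msh3-/- group.

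Summed over libraries, Ifi27l2b had 11 counts in Q140 and 332 in WT mice, 32.0-fold lower with Q140 after scaling (95% exact counting interval 17.7 to 64.8). It had 16 counts in Q140 x Msh3+/- and 310 in Msh3+/- mice, 21-fold lower (12.7 to 37.2), and 63 counts in Q140 x Msh3-/- and 205 in Msh3-/- mice, 3.56-fold lower (2.67 to 4.80). The group set against Q140 x Msh3-/- mice was itself lower than WT mice, at 0.583 ± 0.134 CPM in Msh3-/- and 0.890 ± 0.423 CPM in WT mice. The fitted fall on the Msh3+/- background was 4.33 on the log2 scale (SE 0.493, adjusted p = 9.47e-10, edgeR).

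Ifi27l2a, 7.22 kb from Ifi27l2b, is its closest relative, with 87.2% identity over 273 bases of the longest transcripts, so reads may be shared. Ifi27l2a fell to 0.270 ± 0.186 CPM in Q140 x Msh3+/-, against 0.535 ± 0.114 CPM in Msh3+/- mice (-1.01, SE 0.320, adjusted p = 0.0167, edgeR), and by 1.47 on the log2 scale on the WT background (adjusted p = 0.000293). On the Msh3-/- background its log2 fold change was -0.67 (adjusted p = 0.237). Ppp4r4, a phosphatase regulatory subunit gene 75.1 kb to the other side, fell by 0.69 (SE 0.0443, adjusted p = 7.51e-18) on the Msh3+/- background. Of 19 tested interferon-inducible genes, 1 rose and 2 fell (Ifi27 and Ifi27l2a), with a median log2 change of -0.01. Of 11 genes of lipopolysaccharide recognition, Myd88 rose (0.27, adjusted p = 0.00938) and none fell, with a median of 0.02.

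**Figure D3:**
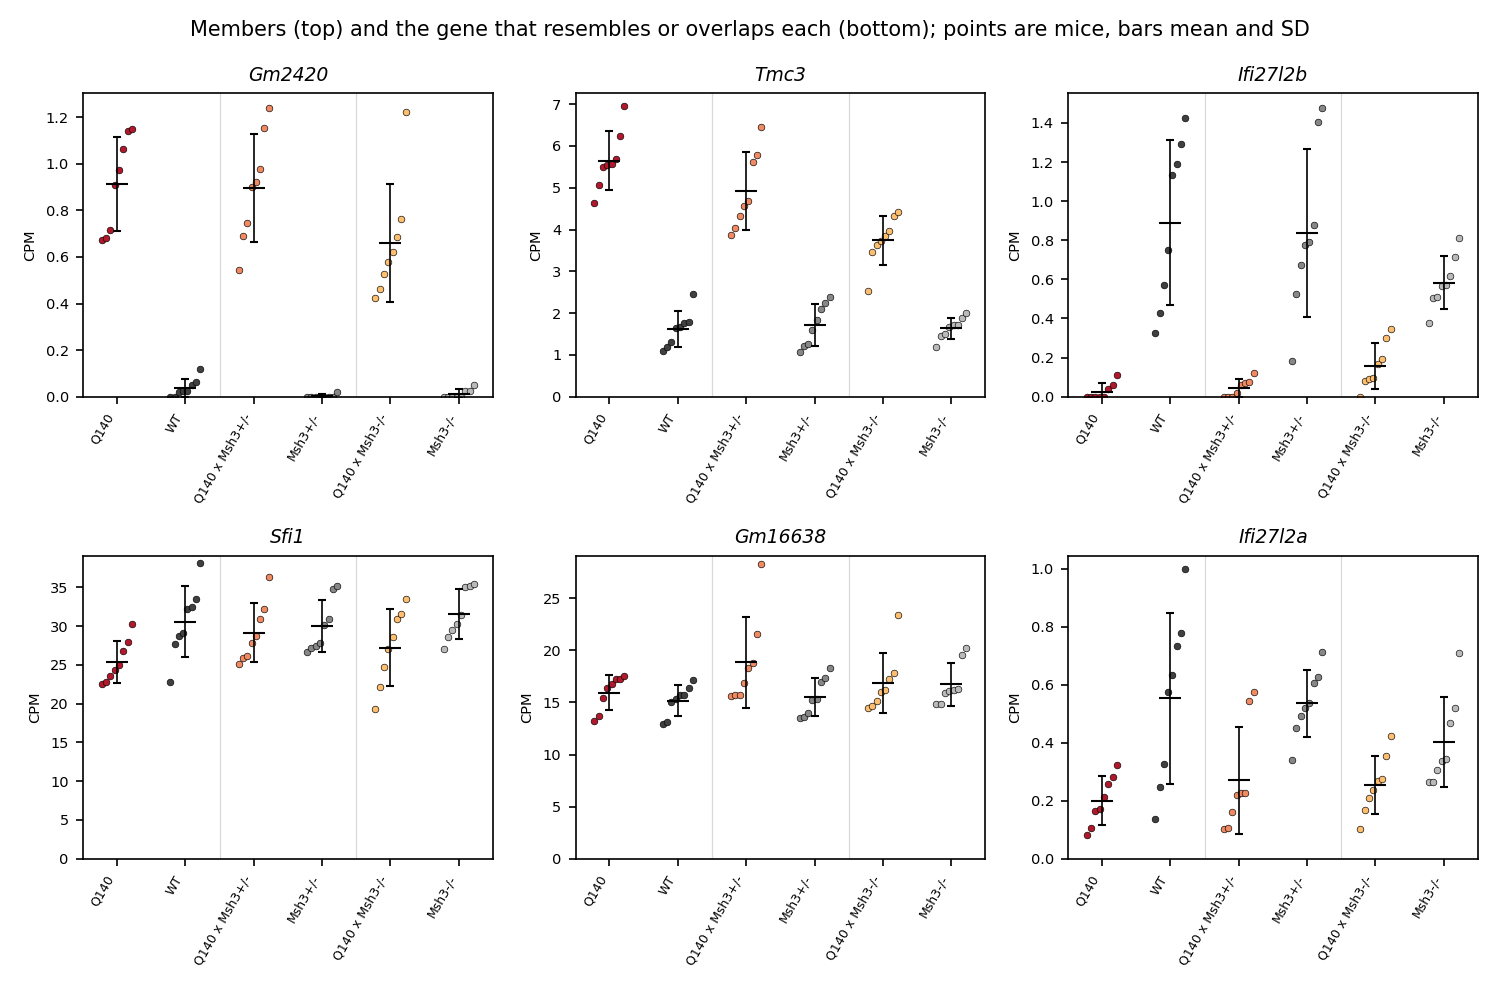
CPM in every mouse (points), with mean and SD (bars), for Gm2420, Tmc3 and Ifi27l2b in the top row and, below each, the gene that resembles it (Sfi1 and Ifi27l2a) or overlaps it (Gm16638). Axes start at 0 and differ in scale. The means of Sfi1 and Ifi27l2a are lower with Q140 in each pair, and for Sfi1, Gm16638 and Ifi27l2a the ranges overlap in each pair.

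Microglial markers were examined beside these 2 genes because microglia are the resident immune cells of the brain. Of 12 markers, 1 (Cx3cr1, -0.17, adjusted p = 0.0121, edgeR) fell on the Msh3+/- background and none rose. Their summed level was 409 to 527 CPM in Q140 x Msh3+/- and 489 to 529 CPM in Msh3+/- mice. On the WT background 7 of the 12 fell, and the sum was 423 to 490 CPM in Q140 and 503 to 603 CPM in WT mice. On the Msh3-/- background none of the 12 passed the test, with a median log2 change of -0.02. The sum there was 410 to 565 CPM in Q140 x Msh3-/- and 443 to 562 CPM in Msh3-/- mice. No marker was at 0 in a whole group. The part of these marker changes in the fall of Aoah and Ifi27l2b was not tested.

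Theg and Sohlh1 are known from germ cells. Theg encodes a protein of late sperm cells, and Sohlh1 encodes a basic helix-loop-helix transcription factor of early germ cell differentiation. Theg lies on chromosome 10 (79576379 to 79587331, minus strand) and Sohlh1 on chromosome 2 (25842995 to 25847248, minus strand), and no other transcript resembled either at the settings used.

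The level of Theg in Q140 mice was 0.147 CPM at the lowest, 0.313 CPM at the median and 0.560 CPM at the highest, against 1.14, 1.44 and 2.07 CPM in WT mice. The Q140 x Msh3+/- mice had 0.317, 0.443 and 0.795 CPM, against 0.858, 1.47 and 1.72 CPM in Msh3+/- mice. It stood at 0.339, 0.635 and 1.21 CPM in Q140 x Msh3-/- mice, against 1.20, 1.72 and 2.38 CPM in Msh3-/- mice. The groups were apart on the WT and Msh3+/- backgrounds, and on the Msh3-/- background they overlapped at a single pair of mice. Theg fell by 1.55 on the log2 scale on the Msh3+/- background (SE 0.237, adjusted p = 9.53e-07, edgeR), beside -2.03 on the WT and -1.32 on the Msh3-/- background.

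Sohlh1 was at 0 in 5 Q140 libraries and at most 0.145 CPM in the others, against 0.239 CPM at the lowest, 0.416 CPM at the median and 0.759 CPM at the highest in WT mice. Among Q140 x Msh3+/- mice it was 0, 0.0289 and 0.153 CPM, against 0.248, 0.503 and 0.901 CPM in Msh3+/- mice. The corresponding values were 0.0423, 0.210 and 0.540 CPM in Q140 x Msh3-/- mice, against 0.317, 0.699 and 0.820 CPM in Msh3-/- mice. Only on the Msh3-/- background did the groups overlap, through Q140 x Msh3-/- M4. Summed counts were 10 in Q140 and 178 in WT mice, 18.9-fold lower (95% exact counting interval 10 to 40.1), 22 in Q140 x Msh3+/- and 204 in Msh3+/- mice, 10-fold lower (6.45 to 16.4), and 87 in Q140 x Msh3-/- and 223 in Msh3-/- mice, 2.81-fold lower (2.18 to 3.64).

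Sohlh1 fell by 3.28 on the log2 scale on the Msh3+/- background (SE 0.460, adjusted p = 1.36e-07, edgeR). Its log2 fold change on the WT background was -4.06 with all mice and -5.34 without the 4 Q140 and WT libraries whose sample names carry another prefix than the rest, which include the highest Q140 mouse. Of 11 tested germ cell genes, 1 (Kit, -0.15, adjusted p = 0.00196) fell on the Msh3+/- background and none rose, with a median log2 change of -0.08. Of the neighbours of Theg, C2cd4c fell by 0.42 (adjusted p = 0.00045) and Mier2 was at -0.06 (adjusted p = 0.347). The neighbour of Sohlh1, the potassium channel gene Kcnt1, fell by 0.23 (adjusted p = 0.0044).

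On a scale that allows for gene length, the 10 genes stayed low. In Q140 mice mean levels ran from 7.65 ± 0.995 FPKM for Rprm down to 0.0201 ± 0.0397 FPKM for Sohlh1, and in WT mice from 3.07 ± 0.382 FPKM for Rprm down to 0.0156 ± 0.0167 FPKM for Gm2420. Cpne9 was at 0.681 ± 0.12 FPKM in Q140 and 2.33 ± 0.320 FPKM in WT mice, and no other of the 10 reached 1 FPKM in either group.

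The Q140 groups were compared with each other as a description, since they hold mice that chose the genes. All 7 lower genes had their lowest mean in Q140, a higher one in Q140 x Msh3+/- and the highest in Q140 x Msh3-/- mice, and 2 of the 3 higher genes (Tmc3 and Gm2420) ran the other way. Neighbouring groups in that order overlapped in all 10 genes. Between its ends, Q140 x Msh3-/- minus Q140, log2 differences of the lower genes were 0.69 (SE 0.231) for Phex, 0.73 (SE 0.126) for Cpne9, 0.98 (SE 0.253) for Theg, 1.40 (SE 0.264) for Aoah, 1.76 (SE 0.380) for Vdr, 2.40 (SE 0.612) for Ifi27l2b and 3.04 (SE 0.564) for Sohlh1. So all 7 were nearer to the level of mice without Q140 in Q140 x Msh3-/- than in Q140 mice, while still below it. Their first step, Q140 x Msh3+/- minus Q140, ran from 0.33 (SE 0.127) for Cpne9 to 1.05 (SE 0.69) for Sohlh1. It was 0.50 (SE 0.761) for Ifi27l2b. No share of all tested genes is given for this order or for these overlaps, so nothing is read from the member counts. Over the 322 genes at least 2-fold changed in Q140 minus WT, the median share of the change was 62.7% on the Msh3+/- and 37.4% on the Msh3-/- background.

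Without Q140, the Msh3 genotypes differed less. In Msh3-/- minus WT, log2 differences lay between -0.56 (SE 0.356, Ifi27l2b) and 0.60 (SE 0.297, Vdr) for the 9 genes other than Gm2420, and groups overlapped in all 10. The share of all tested genes that overlapped there is not given. Vdr averaged 1.20 ± 0.585 CPM in Msh3-/-, 1.15 ± 0.442 CPM in Msh3+/- and 0.789 ± 0.251 CPM in WT mice. A fold change of Vdr on an Msh3 background is therefore set against a higher mean than on the WT background.

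The share of the log2 change that remained on the Msh3-/- background was 37.1% for Sohlh1, 39.1% for Ifi27l2b, 46.4% for Aoah, 55.8% for Vdr and between 64.9% and 66.2% for Theg, Cpne9, Tmc3 and Phex. It was 85.6% for Rprm and 122% for Gm2420, whose share rests on near-empty groups. The median of the 10 genes was 65.0%, beside 37.4% (quartiles 20% and 50.3%) over the 322 genes (1.63% of those tested) at least 2-fold changed and past the threshold in Q140 minus WT. The rule itself fixes part of that difference, so nothing is read from it. Sohlh1 and Ifi27l2b had shares near the median of the 322 genes, and their log2 changes in Q140 minus WT were -4.06 and -4.87.

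**Figure D4:**
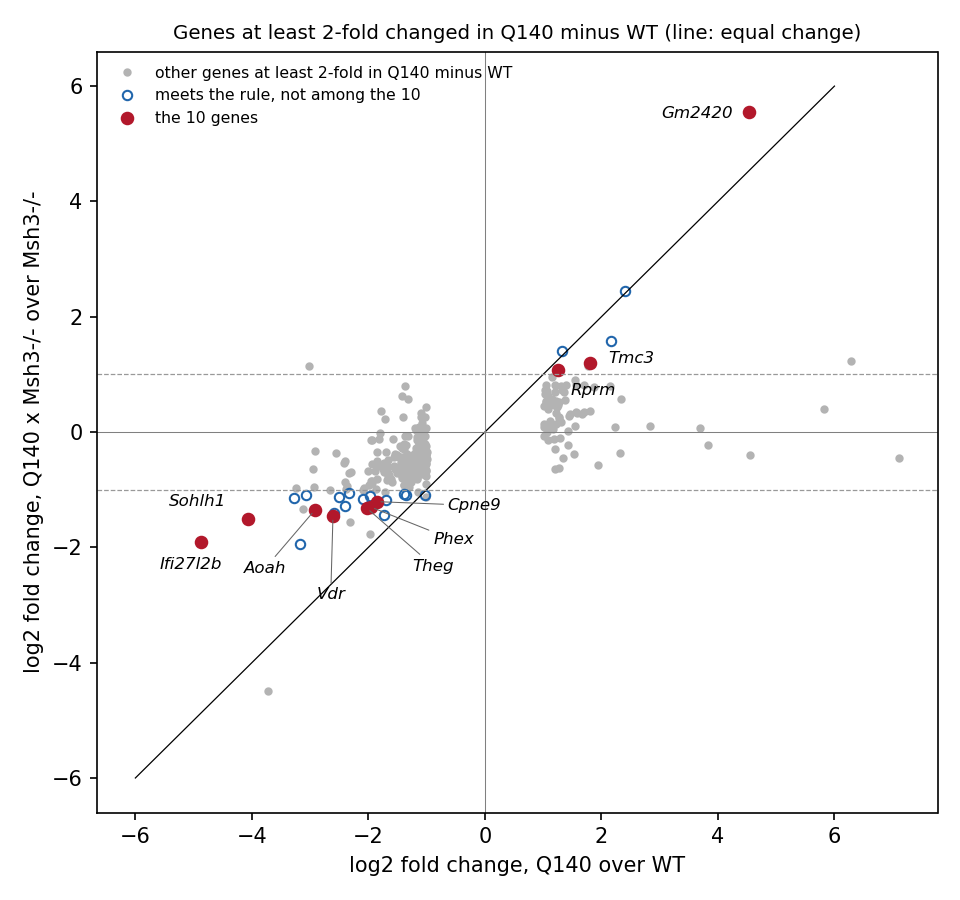
Log2 fold change of Q140 x Msh3-/- over Msh3-/- (vertical axis) against Q140 over WT (horizontal axis) for the 322 genes past the threshold and at least 2-fold changed in Q140 minus WT. Filled red points are the 10 genes, open blue points are other genes that meet the rule (4 of the 31 are not drawn because they changed less than 2-fold in Q140 minus WT), the diagonal marks equal change and dashed lines mark 2-fold. Gm2420 lies above the diagonal, Rprm close to it, Tmc3 below it (1.80 across and 1.19 up), and Sohlh1 and Ifi27l2b far from it but past the dashed line.

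The other 21 genes that meet the rule are not described here beyond their place in it. On the Msh3+/- background 26 of the 31 passed the test and 25 changed at least 2-fold. Just inside the limit on the Msh3-/- background were 4930426D05Rik (log2 fold change 1.002), Snord89 (-1.022) and 7630403G23Rik (-1.023), and just outside it were Gm12198 (-0.99), Dgat2l6 (-0.987) and Tmem114 (-0.974). Of the 10 genes Rprm was nearest to the limit, at 1.07.

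The stated rule did not use sex. Female minus male passed the test in 1 of the 10 genes, beside 4.26% of all tested genes. Cpne9 was higher in females by a log2 difference of 0.23 (SE 0.0695, adjusted p = 0.0497, edgeR), and this call was lost with another scaling of library sizes and without the filter on low counts. Its mean was higher in females in 4 of the 6 groups, most with Q140 x Msh3-/- (10.3 CPM in females and 7.17 CPM in males) and Msh3-/- (22.5 and 17.7 CPM), and lower in females in WT (18.2 and 19.4 CPM) and Msh3+/- mice (19.7 and 20.2 CPM). For the other 9 genes the adjusted p was 0.133 or more. A difference between the sexes in the Q140 effect on the Msh3+/- background passed the test in 0 of the 10 genes and in 0.00% of all tested genes with edgeR, and in 0 genes with DESeq2. At an unadjusted p under 0.05 (edgeR) it was seen in 654 of the 19714 tested genes, and nothing is read from that number. Among the members Cpne9 had the smallest unadjusted p there, 0.0499.

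The genes whose levels were most like each member across all 48 libraries are given as a description, since the libraries share their genotypes. The highest Pearson correlation of log2 CPM was that of Cpne9 with Cnr1, the cannabinoid receptor gene, at 0.96. For Phex and Ifi27l2b it was with Neto2, a subunit of kainate receptors, at 0.95 and 0.93. The gene most like Vdr was Sfn, at 0.90, that most like Aoah was Vrk1, at 0.92, that most like Theg was Plk5, at 0.91, and that most like Sohlh1 was Gm44210, at 0.93. Among genes that rose, Gm2420 and Rprm were both most like Fat1, at 0.94 and 0.92, and Tmc3 was most like Olfm3, at 0.91. After genotype and sex means were removed, the 45 pairs among the 10 genes had a median correlation of -0.01, with a range of -0.39 to 0.50 over 48 libraries.

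The markers of the spiny projection neurons moved with the 7 lower genes. Of 14 markers, 13 fell and 1 (Tac1) rose on the Msh3+/- background, with a median log2 change of -0.56, and their summed level was 9940 to 11800 CPM in Q140 x Msh3+/- and 15800 to 17100 CPM in Msh3+/- mice. The sum was 9030 to 10100 CPM in Q140 and 15300 to 17200 CPM in WT mice, and 11400 to 14600 CPM in Q140 x Msh3-/- and 14900 to 17400 CPM in Msh3-/- mice. Pde10a fell by 0.78 (adjusted p = 3.91e-19, edgeR) and Penk, the enkephalin precursor, by 1.02 (adjusted p = 7.05e-20) on the Msh3+/- background. In tissue RNA, fewer cells of a type and less RNA per cell cannot be told apart. The fall of each of the 7 genes on the Msh3+/- background was larger than that of any of the 14 markers. The rule took genes by the size of their change and the markers were not so chosen, so nothing is read from this. The part of the markers' change in the fall of the 7 genes was not tested.

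Markers of other cells had smaller median changes than those of spiny projection neurons on the Msh3+/- background. For the 6 cortical markers the median was -0.35, with none passing the test. Against Msh3-/- mice, Q140 x Msh3-/- mice had a cortical median of 0.75, again with none passing. The median of the spiny projection neuron markers was -0.30 there. On the Msh3+/- background 3 of 10 astrocyte markers, 4 of 9 oligodendrocyte markers, 6 of 9 endothelial and mural markers and 3 of 8 interneuron markers fell and none rose, with medians of -0.14, -0.08, -0.22 and -0.16. None of 5 markers of oligodendrocyte precursors and none of 6 of choroid plexus and ependyma passed the test, although without Msh3+/- M4 the precursor marker Vcan fell (-0.24, adjusted p = 0.0208). Summed astrocyte markers were 4230 to 4660 CPM in Q140 x Msh3+/- and 4760 to 5530 CPM in Msh3+/- mice, which did not overlap. Summed endothelial and mural markers were 258 to 305 CPM in Q140 x Msh3+/- and 255 to 350 CPM in Msh3+/- mice, and the overlap was through Msh3+/- F4 alone, the other 7 Msh3+/- mice being at 321 CPM or more. No marker of any list was at 0 in all libraries of a group. Their part in the changes of the 10 genes was not tested.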

How the data were processed

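RNA from 48 mouse striata was sequenced as stranded TruSeq libraries, per the labels' protocols. The authors deposited raw counts per gene, whole numbers, and FPKM values. Alignment and counting tools, per the submitters' processing notes, were STAR 2.7.5c and HTSeq 0.12.3 with SAMtools 1.10 on GRCm38 (mm10). The annotation release, the strand setting and any filter were not given in the sources used here. In the deposited table FPKM is a count scaled by a constant of the gene and by the library total (largest relative deviation 1.7e-07), and serves here to compare levels between genes.

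Genes were kept by edgeR's filterByExpr (minimum count 10). Counts were fitted with edgeR 4.0.16 in R 4.3.3 (TMM, robust quasi-likelihood, 6 genotypes and sex, all 48 libraries, 41 residual degrees of freedom), with Benjamini-Hochberg adjustment over 19714 genes and a threshold of 0.05. Errors are SD over 8 mice or SE of the fit. Counting intervals are 95% exact conditional intervals of pooled counts. Coordinates are from GENCODE M21, which held 48349 of the identifiers, and transcript likeness from blastn 2.17.0. Alternatives used DESeq2 1.42.0 and limma 3.58.1, among others. The fit was tested on simulated data.

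The members and gene lists were chosen with earlier results of these data known. Named beside the 10 members are Msh3 and Htt, list genes past the threshold in Q140 x Msh3+/- minus Msh3+/- (up to 4 a list by smallest p), genes with the highest correlation to a member, tested neighbours within 100 kb and genes at the edge of the 2-fold limit. Sfi1 and Tac1, and list genes whose call changed when a library was left out, were added after their values were seen. The values of 1 gene of the interferon list are not reported here.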

Additional observations from a re-analysis of the deposited data

Results flagged for a closer look

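For each of the 10 genes in each of the 6 groups of 8 mice, the distance of the highest or lowest mouse from its nearest neighbour was divided by the range of the group. In 6 of the 60 groups this ratio exceeded Dixon's 95% value. Its rate of 1 in 20 holds for normally distributed values, which CPM from low counts need not be, so 6 is not read as an excess. Rprm stood at 14.03 CPM in Q140 F3, with the next mouse at 11.5 CPM, and at 7.292 CPM in Msh3+/- M4, with the next at 5.046 CPM. Phex stood at 10.54 CPM in Msh3+/- F1, with the next at 6.687 CPM. Sohlh1 stood at 0.1451 CPM in Q140 M4, with the next at 0.04046 CPM. Gm2420 stood at 1.224 CPM in Q140 x Msh3-/- F1, with the next at 0.762 CPM, and at 0.02126 CPM in Msh3+/- M2, which is 1 count where the other 7 mice had 0. All 6 were the highest mouse of their group.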

How the results depend on the processing

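The effect of the processing was computed for the counts of genes past the threshold and for each member. In Q140 x Msh3+/- minus Msh3+/-, all 10 members kept their direction and their side of the threshold under all 13 other settings and with each of the 16 mice left out in turn, except that Ifi27l2b did not pass the filter on low counts in a fit of those 16 libraries alone, which left 9 members tested. The largest adjusted p was 0.0303, for Vdr in females alone. The count of all genes past the threshold, 4247, was 1622 in females and 2218 in males alone, with fewer mice in each, and 3834 to 4147 when 1 mouse was left out, with 10 members past it each time. Total counts in place of TMM gave 4507 genes higher and 1351 lower, where TMM gave 2120 and 2127, with 3 and 7 members either way. The members past the threshold in female minus male were 1, and 0 with DESeq2 size factors, with total counts and with no filter, where the adjusted p of Cpne9 was 0.0509, 0.06 and 0.091. Mice with the same replicate number were not paired (median correlation of their deviations -0.03 over 120 pairs, 7 of them over 0.1, and -0.03 for other numbers), and the replicate block gave 4256 genes and 10 members. On the log2(FPKM + 1) scale all changes were smaller, down to -0.19 for Vdr on the Msh3+/- background, as the pseudocount exceeds the level of most members, and all 10 were under the 2-fold limit on the Msh3-/- background, Rprm being nearest to it at 0.87. After seeing the data, the gene lists were also tested without Q140 x Msh3+/- F1, without Msh3+/- M4 and without the 4 libraries named in the report, and the markers of spiny projection neurons were 13 lower and 1 higher each time. Low counts limit Gm2420, Ifi27l2b and Sohlh1, whose ratios are uncertain by the intervals given.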
